A study of Mus musculus with 11 samples.

Results

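Amn-low endoderm cells of Oct4LOF nEnd were compared between a library made without and a library made with 4-hydroxytamoxifen (4OHT), which deletes Oct4 (gene symbol Pou5f1) in this line. A barcode was taken as an Amn-low endoderm cell when it held 2700 or more UMIs with at most 12% from mitochondrial genes, a summed level of 3000 or more UMIs per 1000000 (CPM) for the basement membrane genes Sparc, Col4a1 and Col4a2, under 1000 CPM of the fibroblast collagens Col1a1, Col1a2 and Col3a1, and 0 UMIs of Amn and Cubn. This left 467 of 6896 barcodes in the -4OHT library (6.77%) and 5249 of 7283 in the +4OHT library (72.1%), 5716 cells in all. Naive extra-embryonic endoderm (nEnd) is a self-renewing culture used as a model of blastocyst primitive endoderm (PrE). The Oct4LOF line (cell line EPUc in the labels) was derived from embryonic stem cells homozygous for an inducible Oct4 loss-of-function allele, and both libraries carry that allele. Cells positive for the PDGFRA receptor were sorted, cultured with or without 4OHT and then in RACL medium on feeder fibroblasts, and live cells were sorted again for 10x 3′ libraries. The labels give the -4OHT library as untreated, and the sources used here name no vehicle and no control line for 4OHT itself, so that loss of Oct4, exposure to 4OHT and its recombinase cannot be told apart. The -4OHT Amn-low cells also shared their culture with epiblast-like cells, which were 57.25% of the barcodes there and 1.06% in +4OHT, and this difference in company cannot be told apart from the loss of Oct4 either. Whether the line is a single clone is not stated.

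Cubilin (Cubn) and its partner amnionless (Amn) form the endocytic receptor by which visceral endoderm takes up proteins from its surroundings. Endoderm of the early embryo splits into visceral endoderm, which surrounds the epiblast, and parietal endoderm, which makes the thick basement membrane of the yolk sac with collagen IV and laminin. OCT4 is best known as a core factor of the pluripotent epiblast, and it is also present in the early PrE.

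Each condition was a single library, so there is no replicate check on any difference between them and no p-value is given. A level is a gene's CPM in the UMIs summed over the Amn-low cells of a library, a ratio is +4OHT over -4OHT on the log2 scale, and its 95% interval covers counting error only. The cells of both libraries had a similar depth, with a median of 11836 UMIs and 5.89% mitochondrial UMIs in -4OHT and 11900 UMIs and 6.09% in +4OHT. The sums rested on 6332448 and 70604727 UMIs, so the smaller -4OHT sum sets the precision. In all, 21 barcodes occurred in both libraries, and 1 and 17 of them were Amn-low cells.

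The cut on Amn and Cubn selected different shares of the endoderm, which were chosen by these values and are given as a description. The Amn-low cells made up 32.6% of 1432 endoderm cells in -4OHT and 83.4% of 6291 in +4OHT. Amn stood at 306.1 and 3.91 CPM over all endoderm cells, and Cubn at 437.5 and 16.9. Of the endoderm cells just outside the cut, 133 of 965 in -4OHT held a single UMI of the pair, against 683 of 1042 in +4OHT, so that the class is not the same slice of the endoderm in both. On the collagen IV and Sparc cut, the nearest -4OHT cells stood at 3015.8 CPM inside and 2999.8 outside, and the nearest +4OHT cells at 3095.5 and 2889.6.

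Endoderm markers that the rule did not use were present in both libraries. Gata6, a master factor of PrE, was found in 85.2% of -4OHT cells and 91.9% of +4OHT cells, and Sox17 in 88.2% and 95.2%. Epiblast-like cells, which should lack both, held UMIs of Gata6 in 6.84% and 28.6% of the cells and of Sox17 in 4.18% and 32.5%, at median depths of 18714 and 14692 UMIs, with 77 such cells in +4OHT. Pdgfra stood at 147.5 and 207.1 CPM, against 1.89 in the epiblast-like cells of the -4OHT library. The laminin chain gene Lama1 stood at 1345 and 1648 CPM. The visceral endoderm genes Afp and Ttr were low, at 1.90 and 1.56 CPM for Afp and 26.2 and 37.0 for Ttr, while the endocytic receptor Lrp2 stood at 196.3 and 181.1 CPM, against 6.38 in the epiblast-like cells of the -4OHT library. Of the fibroblast markers, Dcn had 1 and 70 UMIs and Postn 0 and 7. Of 12 genes on the feeder fibroblast list, 1 reached 20 CPM, Fbn1 at 73.9 and 79.7. The trophectoderm factor gene Cdx2 stood at 2.37 and 2.49 CPM. Of 15 trophectoderm genes, 4 reached 20 CPM, among them the keratin gene Krt8, with a median per cell of 371.3 and 434.3 CPM. The two-cell-like gene Zscan4c had 5 and 0 UMIs, and no gene of its list reached 20 CPM. Epiblast markers differed between the libraries, which bears on the lower genes described further on.

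Pou5f1 itself was sparse. It had 59 UMIs in the -4OHT cells (9.32 CPM) and 125 UMIs in the +4OHT cells (1.77 CPM), a log2 ratio of -2.40 (95% interval -2.85 to -1.92). The epiblast-like cells of the -4OHT library held 47.8 CPM. The gene lies on chromosome 17 from 35506032 to 35510777 (GRCm38), and the sources used here do not say which part of it 4OHT removes. The 3′ tags may lie outside the deleted part, in which case the counts say nothing about the deletion. By immunostaining, the study itself reports loss of OCT4 protein in Oct4LOF nEnd after 4OHT. It also measured Oct4 RNA by RT-qPCR and OCT4 protein by western blot, with and without 4OHT, in the embryonic stem cells of this line. In the cells with 0 UMIs of 6 epiblast genes, which are defined with the lower genes, Pou5f1 stood at 2.68 and 1.60 CPM.

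Of 6736 genes with at least 20 CPM in 1 library, the genes of the selection rule left out, 142 were 2-fold or more higher in +4OHT cells (2.11%) and 94 were 2-fold or more lower (1.40%). The median ratio over all 6736 genes was 0.09. The interval of the ratio lay wholly beyond 2-fold for 60 of the higher and 73 of the lower genes. In the endoderm cells with Amn or Cubn UMIs, the same comparison gave 711 of 6789 genes higher (10.5%) and 256 lower (3.77%). That second comparison sets cells with mostly 1 UMI of the pair in +4OHT against cells with many in -4OHT.

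**Figure D1:**
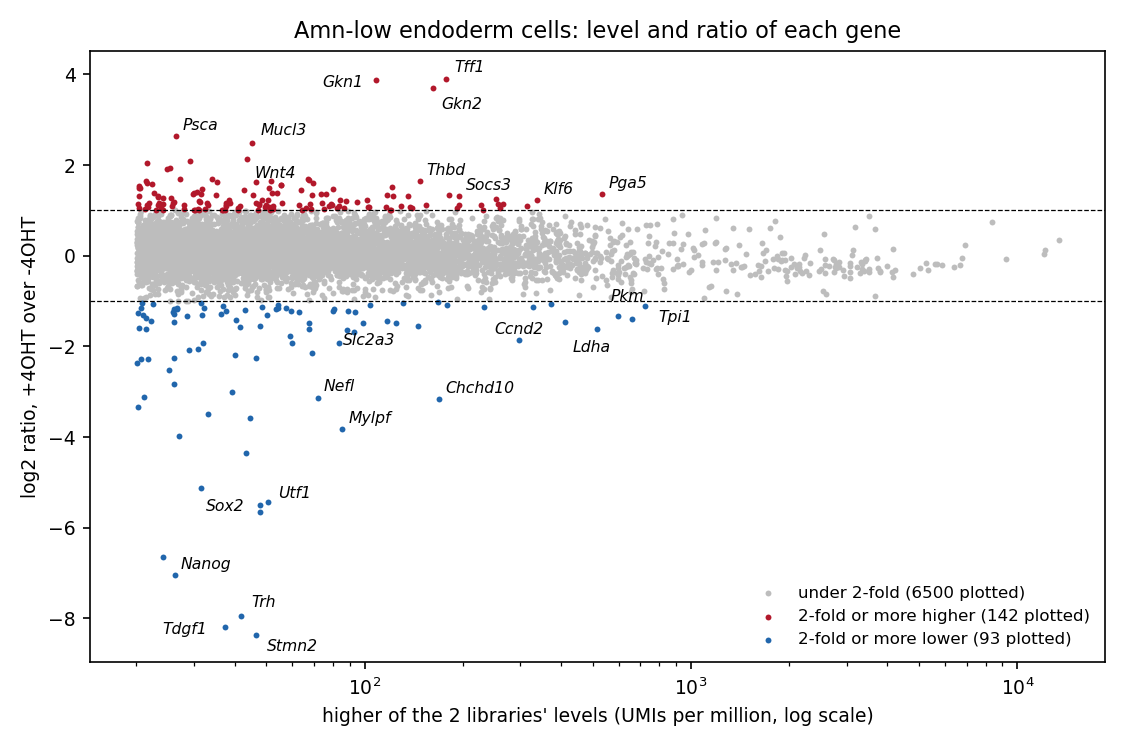
Log2 ratio of each gene in Amn-low endoderm cells, +4OHT over -4OHT (vertical axis), against the higher of its levels in the 2 libraries (CPM, log scale). Each point is a gene with 20 CPM or more, 142 are 2-fold or more higher and 93 of the 94 lower genes are plotted, since Igfbp1 had 0 UMIs in +4OHT. Tff1, Gkn1 and Gkn2 stand highest at 178, 108.7 and 162.2 CPM in +4OHT, and the lowest points are genes with a higher level in epiblast-like cells.

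The highest ratios belonged to secreted proteins of the gastric lining. Tff1, a trefoil peptide of gastric mucus, stood at 11.8 CPM in -4OHT cells and 178 CPM in +4OHT cells, a log2 ratio of 3.91 (3.58 to 4.26). Gkn1, a gastrokine of the stomach surface, stood at 7.42 and 108.7 CPM (3.87, 3.46 to 4.32), and its neighbour Gkn2 at 12.5 and 162.2 CPM (3.70, 3.38 to 4.04). Epiblast-like cells of the -4OHT library held at most 0.0514 CPM of any of these 3 genes, far under the Amn-low level. The 77 epiblast-like cells of the +4OHT library held 2.41 CPM of Tff1 and of Gkn1 and 4.82 of Gkn2.

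These transcripts sat in a subset of cells. Tff1 was detected in 7.28% of -4OHT cells and 33.6% of +4OHT cells, beside 0.0253% of epiblast-like cells in -4OHT and 3.90% (3 of 77) in +4OHT, whose median depths were 18714 and 14692 UMIs. The top 10% of +4OHT cells held 78.9% of the Tff1 UMIs and 92.3% of the Gkn2 UMIs. In the -4OHT cells, Gkn1 had 47 UMIs in 2.14% of the cells and Gkn2 79 UMIs in 3.85%. A single -4OHT cell held up to 53 UMIs of the pair. The ratios of both gastrokines thus rest on few -4OHT cells, which the counting intervals do not cover. With at most 6% mitochondrial UMIs per cell they were 6.79 for Gkn1 and 4.86 for Gkn2. Cells with 2 or more UMIs summed over Gkn1 to Gkn3 and Tff1 to Tff3 made up 7.28% of the -4OHT cells (34 of 467, exact 95% interval 5.09% to 10.0%) and 34.2% of the +4OHT cells (1794 of 5249, 32.9% to 35.5%). With every cell thinned to 2700 UMIs the shares were 2.36% and 17.3%. Among the endoderm cells with Amn or Cubn UMIs, 1.24% and 23.5% were such cells.

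Gkn1 and Gkn2 lie close together on chromosome 6, Gkn1 from 87345653 to 87350915 and Gkn2 from 87373365 to 87379494, and Tff1 lies on chromosome 17 from 31161395 to 31165060 (GRCm38). The RefSeq promoter windows (GRCm38.p6, 250 bases before to 50 after the annotated start) of both gastrokines are shown. They were chosen for the like ratios of the pair over all Amn-low cells and a match to the GATA motif AGATAA, in capitals, in each window. The Gkn1 window is chr6:87350866-87351165 on the minus strand and the Gkn2 window chr6:87373115-87373414 on the plus strand, with matches 82 and 218 bases before the start.
Gkn1: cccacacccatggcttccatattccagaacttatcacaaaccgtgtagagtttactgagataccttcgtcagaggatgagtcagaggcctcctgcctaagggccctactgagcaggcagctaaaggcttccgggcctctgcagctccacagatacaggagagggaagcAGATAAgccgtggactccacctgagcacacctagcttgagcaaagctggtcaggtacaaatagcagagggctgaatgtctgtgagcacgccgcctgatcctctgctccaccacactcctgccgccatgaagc
Gkn2: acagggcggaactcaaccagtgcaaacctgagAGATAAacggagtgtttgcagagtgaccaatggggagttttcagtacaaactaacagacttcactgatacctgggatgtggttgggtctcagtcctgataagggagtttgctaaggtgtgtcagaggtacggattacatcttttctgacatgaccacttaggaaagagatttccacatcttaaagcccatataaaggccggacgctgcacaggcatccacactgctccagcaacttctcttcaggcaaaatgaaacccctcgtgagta
The motif was searched on both strands and occurred in windows of 12.7% of all 27025 genes in the table, of 6.94% of the 5435 genes with 20 CPM or more that were in the table, of 6 of the 111 higher genes in it (5.41%) and of 4 of the 70 lower genes in it (5.71%). A match is a string of letters in this window and not a measured site.

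Other genes among the 12 highest ratios were low in -4OHT cells. The surface protein gene Psca stood at 4.26 and 26.5 CPM (2.64, 2.09 to 3.24), the mucin-like gene Mucl3 at 8.05 and 45.2 (2.49, 2.09 to 2.92) and the secreted signal Wnt4 at 9.95 and 43.5 (2.13, 1.77 to 2.51). The rest of the 12 were the villin-like gene Vill, the transcript Gm20186, the transcription factor gene Sox21, the 14-3-3 gene Sfn, Ahnak2 and the lysosomal gene Cd68, at log2 ratios from 2.10 down to 1.70. In the cells with under 2 gastrokine or trefoil UMIs the ratio was 2.04 for Psca, 1.96 for Mucl3 and 1.62 for Wnt4, and these 3 genes were thus past 2-fold outside the gastrokine cells. Without gastrokine, trefoil, Pitx1 or Car4 cells, which left 61 and 1039 cells, the ratio was 2.87 for Psca, 1.09 for Mucl3 and 2.30 for Wnt4, while Sox21, Ahnak2 and Cd68 were under 2-fold (0.68, 0.86 and 0.06).

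**Figure D2:**
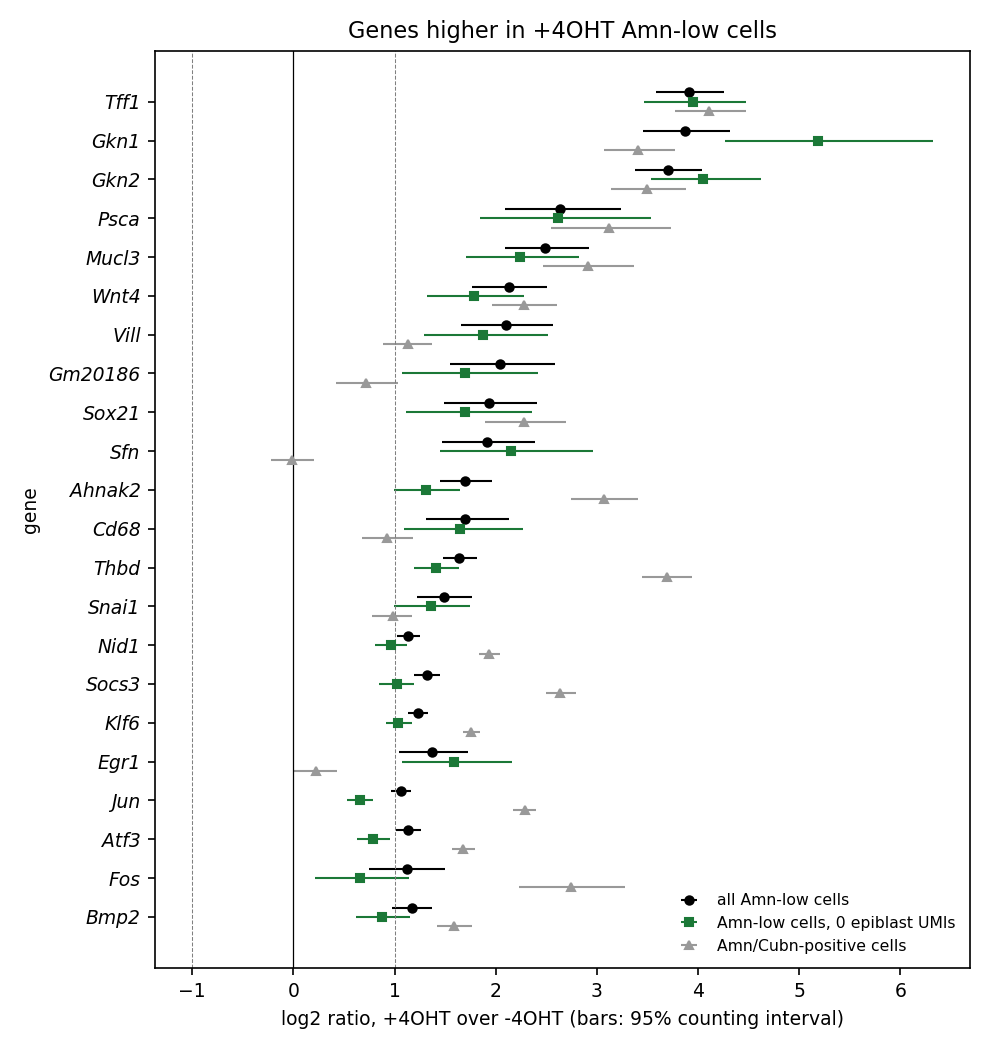
Log2 ratio of named higher genes, +4OHT over -4OHT, with 95% counting intervals as bars, in all Amn-low cells (circles), in Amn-low cells with 0 UMIs of 6 epiblast genes (squares) and in endoderm cells with Amn or Cubn UMIs (triangles). Tff1 lies near 4 in all 3 sets (3.91, 3.95 and 4.11), while Jun, Atf3 and Fos lie under 1 in the squares and Sfn lies near 0 in the triangles.

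Some genes of signal responses and of the parietal endoderm were higher to a smaller degree. Of 9 immediate early genes with 20 CPM or more, 5 were 2-fold or more higher, beside 2.11% of all genes, and none was 2-fold lower, with a median ratio of 1.06. The transcription factor gene Klf6 stood at 144.2 and 337.9 CPM (1.23, 1.13 to 1.33) and Egr1 at 11.5 and 29.9 (1.37, 1.04 to 1.73). Without gastrokine, trefoil, Pitx1 or Car4 cells, the ratio was -0.24 for Egr1, 0.29 for Atf3, 0.05 for Fos and 1.05 for Klf6, and the median of the list was 0.44. Jun, Atf3 and Fos had ratios of 1.06, 1.13 and 1.12, which were 0.66, 0.79 and 0.66 in the cells with 0 UMIs of 6 epiblast genes, where 2 of the 9 genes were past 2-fold.

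All 7 genes of LIF and JAK/STAT signalling with 20 CPM or more had ratios above 0, with a median of 0.59. Ratios above 0 were also common over all genes, whose median was 0.09. Of them 1 was past 2-fold, beside 2.11% of all genes. That gene, Socs3, a feedback inhibitor induced by LIF, stood at 78.2 and 194.9 CPM (1.32, 1.19 to 1.45). The receptor gene Lifr stood at 103.8 and 158 CPM (0.61, 0.49 to 0.72). Jak1 had a ratio of 0.59. LIF is a component of the medium in both conditions.

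Of 18 parietal endoderm and basement membrane genes, 14 had ratios above 0 and 3 were 2-fold or more higher, beside 2.11% of all genes, with a median of 0.43 against 0.09 over all genes. In the cells with 0 UMIs of 6 epiblast genes the median of the list was 0.18, against 0.07 over all genes. There 2 of the 18 were 2-fold or more higher and 1 lower, beside 93 and 43 of all 6665 genes. Thbd, a coagulation receptor of parietal endoderm, stood at 47.2 and 147.6 CPM (1.64, 1.48 to 1.81). Snai1, a regulator of epithelial-mesenchymal transition, stood at 18.2 and 50.95 CPM (1.49, 1.22 to 1.77) and the basement membrane linker Nid1 at 103.4 and 227.1 (1.13, 1.02 to 1.25). Snai1 had a ratio of 0.76 without gastrokine, trefoil, Pitx1 or Car4 cells and of 0.08 in the 24 and 900 cells with 0 UMIs of Nanog, Sox2, Esrrb, Tdgf1, Dppa5a and Zfp42. Nid1 had a ratio of 0.36 in those 24 and 900 cells and of 0.96 in the cells with 0 UMIs of 6 epiblast genes. The laminin genes differed little, with Lama1 at 0.29 and Lamb1 at 0.12, and the gene of the collagen-modifying enzyme PLOD2, Plod2, stood at 715.7 and 417.1 CPM (-0.78).

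Each of the 10 endoderm transcription factor and receptor genes with 20 CPM or more had ratios above 0, though none was past 2-fold. Their median was 0.52, against 0.09 over all genes. Kit, a receptor tyrosine kinase, stood at 128.4 and 235.6 CPM (0.88, 0.77 to 0.98), Sox17 at 299.6 and 480.5 (0.68, 0.61 to 0.75) and Gata6 at 209.4 and 328.6 (0.65, 0.57 to 0.73). Gata4 had a ratio of 0.37 and Foxa2 of 0.55. The late PrE gene Cited1 stood at 539.3 and 632.9 CPM (0.23, 0.18 to 0.28). In the cells with 0 UMIs of 6 epiblast genes the median of the list was 0.33.

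Cholesterol synthesis genes had ratios a little above 0. Of 20 members, 19 had ratios above 0 and none was past 2-fold, with a median of 0.42 against 0.09 over all genes. The median of the list was also 0.42 in the cells with 0 UMIs of 6 epiblast genes. Fdft1, which makes squalene, stood at 106 and 167.3 CPM (0.66, 0.55 to 0.77). In the endoderm cells with Amn or Cubn UMIs the median of the list was -0.06.

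Apart from Igfbp1, which had 0 UMIs in +4OHT and is described further on, the lowest ratios belonged to genes with a higher level in epiblast-like cells. Nanog, a core pluripotency factor, stood at 26.2 CPM in -4OHT cells and 0.198 in +4OHT cells (-7.05, -7.95 to -6.26), and Sox2, the partner of OCT4, at 47.7 and 1.06 (-5.49, -5.87 to -5.12). Tdgf1, a NODAL co-receptor, stood at 37.4 and 0.127 CPM, Utf1 at 50.5 and 1.18, Stmn2 at 46.6 and 0.142 and Trh at 41.9 and 0.170. Of 14 epiblast and naive pluripotency genes with 20 CPM or more, 9 were 2-fold or more lower, beside 1.40% of all genes. None was higher, and the median was -1.93. Members such as Nanog and Sox2 passed 20 CPM only in the -4OHT library, where they were high, so the floor in part set this count. Klf2 stood at 44.7 and 3.725 CPM and Tfcp2l1 at 31.9 and 8.37, while Klf4 stood at 280.6 and 457 (0.70).

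These transcripts were concentrated in few of the -4OHT cells. The -4OHT library held 3948 epiblast-like cells (5 or more UMIs of Nanog, Sox2, Esrrb, Tdgf1, Dppa5a and Zfp42 with under 1000 CPM of Sparc, Col4a1 and Col4a2) and the +4OHT library 77. A set of 6 genes, Nanog, Sox2, Tdgf1, Utf1, Stmn2 and Trh, was chosen after the values were seen, because Dppa5a and Zfp42 were also found in 80.0% and 23.1% of the +4OHT Amn-low cells. The -4OHT Amn-low cells held these 6 genes at 10.7% to 22.1% of their level in the epiblast-like cells. Of the 467 cells, 264 had 0 UMIs of the 6 genes, 117 had 1, 39 had 2 to 9, and 47 (10.1%, exact 95% interval 7.49% to 13.2%) had 10 or more. Those 47 cells held 86.5% of the UMIs of the 6 genes.

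The 47 cells differed from the rest in other measures as well. Their median depth was 27335 UMIs, against 11219 in the cells with 0 such UMIs, and their median level of Sparc, Col4a1 and Col4a2 was 7097 CPM, against 15722. In a score against simulated doublets, 44 of the 47 were among the 6% most doublet-like cells of the library. That score used depth and marker levels that include Nanog, Sox2, Tdgf1, Sparc, Col4a1 and Col4a2. It was thus not independent of how the 47 were chosen. In the +4OHT library, 2 of 5249 cells held 10 or more such UMIs, and 5127 held 0. Whether the 47 are cells with both programs or 2 cells in 1 droplet was not tested, and no step that removed doublets is named in the study's methods.

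Most of the 94 lower genes were genes with more UMIs in epiblast-like cells. The epiblast-like cells of the -4OHT library had a higher level than the -4OHT Amn-low cells for 76 of the 94 genes. Among the 264 and 5127 cells with 0 UMIs of the 6 genes, 32 of the 94 remained 2-fold or more lower and 74 of the 142 higher genes remained 2-fold or more higher. The 6 genes are among the 94 and could not remain, since the cells were chosen for 0 UMIs of them. All 18 genes with a lower level in epiblast-like cells were among the 32, and 14 of the other 76, which include the 6 genes. No member of the pluripotency list with 20 CPM or more in these cells was past 2-fold, out of 7. Nanog, Sox2, Tdgf1 and Utf1 belong to that list and could not be among the 7, which in part set this result. Dppa5a, at 1093 and 572.5 CPM in all cells (-0.93), had a ratio of 0.21 there. Removing cells by genes that differ between the libraries also removes any Amn-low cell with its own low expression of them.

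**Figure D3:**
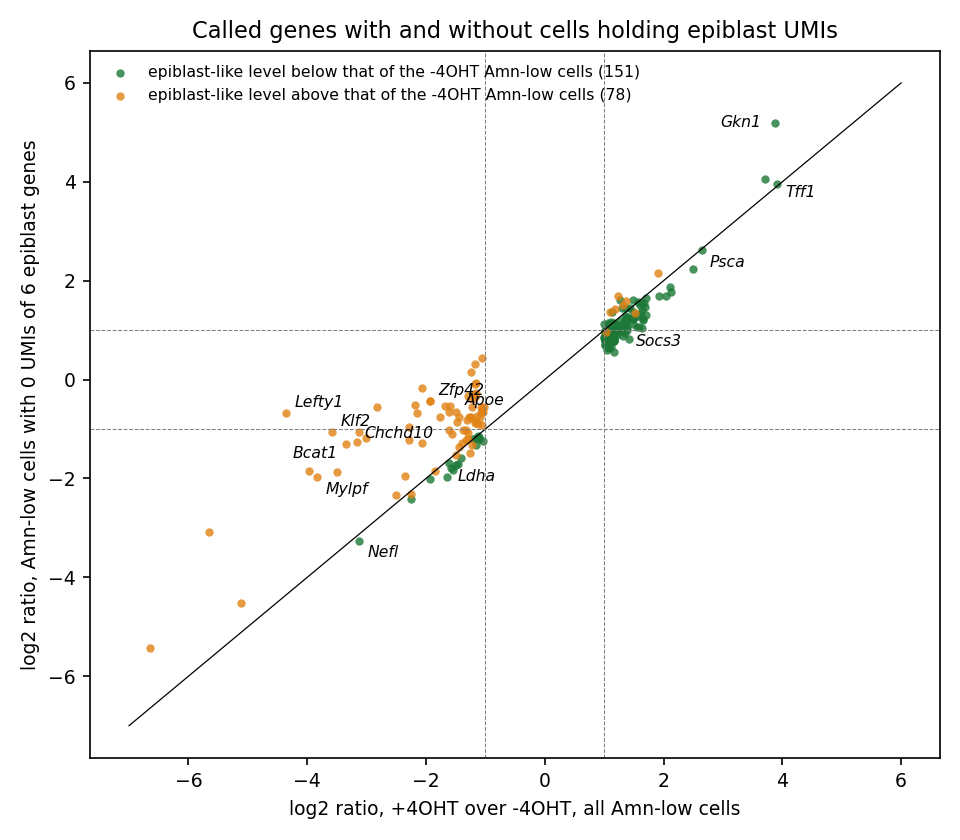
Log2 ratio of genes past 2-fold, +4OHT over -4OHT, in all Amn-low cells (horizontal axis) and in Amn-low cells with 0 UMIs of 6 epiblast genes (vertical axis), with the line of equal ratios. Orange points (78) have a higher level in -4OHT epiblast-like cells than in -4OHT Amn-low cells and lie mostly above the line among the lower genes, while the green points (151) lie near it. In all, 7 of the 236 genes have no finite ratio in 1 of the sets and are not plotted.

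The genes that remained lower included several with a lower level in the epiblast-like cells, and the ones given were named after their values were seen except for Igfbp1, Ldha, Pkm, Slc2a3, Myl9, Id3 and Ung. Igfbp1, a secreted binding protein of insulin-like growth factors, had 214 UMIs in -4OHT cells (33.8 CPM) and 0 in +4OHT cells, at least 795-fold lower against a floor of 3 UMIs. Those UMIs came from 3.43% of the -4OHT cells. The neurofilament gene Nefl stood at 71.9 and 8.19 CPM (-3.13), the potassium channel subunit gene Kcng1 at 26.1 and 5.48 (-2.25) and the proteoglycan gene Gpc3 at 88.3 and 28.3 (-1.64). Ccnd2, a D-type cyclin, stood at 411.1 and 149.8 CPM (-1.46, -1.52 to -1.39), and the epiblast-like cells held 19.3.

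Ccnd2 had a ratio of -1.71 in the cells with 0 UMIs of 6 epiblast genes and of 0.07 in the endoderm cells with Amn or Cubn UMIs. Myl9, a myosin light chain gene, stood at 67.6 and 24.1 CPM (-1.49, -1.64 to -1.33), and its ratio was 1.47 in the Amn or Cubn cells and 0.65 in the Amn-low cells without gastrokine, trefoil, Pitx1 or Car4 cells. The WNT antagonist gene Frzb had a ratio of -1.41 in all Amn-low cells and 0.92 in the Amn or Cubn cells. These 3 genes therefore had no 2-fold lower level in the neighbouring endoderm class, and no test of the difference between classes was possible with 1 library each.

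Chchd10, a gene of the mitochondrial intermembrane space, stood at 169.1 and 18.8 CPM (-3.17, -3.29 to -3.05), at 1145 in the epiblast-like cells, and had a ratio of -1.26 in the cells with 0 UMIs of 6 epiblast genes. Its RefSeq promoter window, chr10:75932880-75933179 on the plus strand (GRCm38.p6), is shown because, of the 32 genes that remained lower, 23 matched the table and Chchd10 was the 1 with the octamer ATGCAAAT, the sequence bound by POU factors, in that window. It lies at 83 and 70 bases before the start and in capitals here. The Igfbp1 window, chr11:7197537-7197836 on the plus strand, is shown for comparison and holds neither motif.
Chchd10: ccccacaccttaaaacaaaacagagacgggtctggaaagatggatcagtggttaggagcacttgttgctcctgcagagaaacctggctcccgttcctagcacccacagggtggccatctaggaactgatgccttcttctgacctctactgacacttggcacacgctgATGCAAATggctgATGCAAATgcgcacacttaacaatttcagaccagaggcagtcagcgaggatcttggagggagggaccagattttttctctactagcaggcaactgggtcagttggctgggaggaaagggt
Igfbp1: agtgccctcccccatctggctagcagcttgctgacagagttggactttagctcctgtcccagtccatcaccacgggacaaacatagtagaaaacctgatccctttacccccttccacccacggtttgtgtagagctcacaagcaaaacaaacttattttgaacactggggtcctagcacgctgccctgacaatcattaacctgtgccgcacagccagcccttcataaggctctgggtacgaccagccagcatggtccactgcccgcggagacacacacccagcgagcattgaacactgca
The octamer, searched on both strands, occurred in windows of 1.97% of all genes in the table and of 1.31% of those with 20 CPM or more. It occurred for 3 of the 70 lower genes in the table (Chchd10, Spp1 and Zfp42, 4.29%) and for 4 of the 111 higher genes (3.60%). None of the 4 windows shown holds both motifs.

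Glycolysis genes were lower in +4OHT cells with and without the cells that held epiblast UMIs. Of 17 members with 20 CPM or more, 8 were 2-fold or more lower, beside 1.40% of all genes, and none was higher, with a median of -0.85. In the cells with 0 UMIs of 6 epiblast genes the median over the same members was -0.74, with 5 of the 15 that kept 20 CPM past 2-fold, and in the endoderm cells with Amn or Cubn UMIs it was -0.89 over 14 members. Over the other alternatives it lay between -0.90 and -0.78. Ldha, which converts pyruvate to lactate, stood at 516.7 and 169.4 CPM (-1.61, -1.66 to -1.55). Its median per cell was 482.3 and 122 CPM, so that the difference was not set by a few cells.

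Other enzymes of the pathway were also past 2-fold. Pkm, the pyruvate kinase gene, stood at 599.6 and 240.9 CPM (-1.32, -1.37 to -1.26), Tpi1 at 725.3 and 338.5 (-1.10) and Pgk1 at 328.5 and 151 (-1.12). The glucose transporter gene Slc2a3 stood at 145.6 and 49.3 CPM (-1.56, -1.67 to -1.46), while the other transporter gene of the list, Slc2a1, stood at 168.5 and 154.9 (-0.12). The hexokinase genes Hk1 and Hk2 had ratios of 0.35 and 0.25, the only ones of the 17 above 0. Pfkp and Pdk1 had ratios of -1.60 and -1.06 in all cells and of -0.53 and -0.59 in the cells with 0 UMIs of 6 epiblast genes. Pfkp had a ratio of 0.75 in the 24 and 900 cells with 0 UMIs of Nanog, Sox2, Esrrb, Tdgf1, Dppa5a and Zfp42. Slc16a3, a lactate transporter gene that is no member of the list and was named after its values were seen, stood at 60.0 and 15.8 CPM (-1.93, -2.10 to -1.76).

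**Figure D4:**
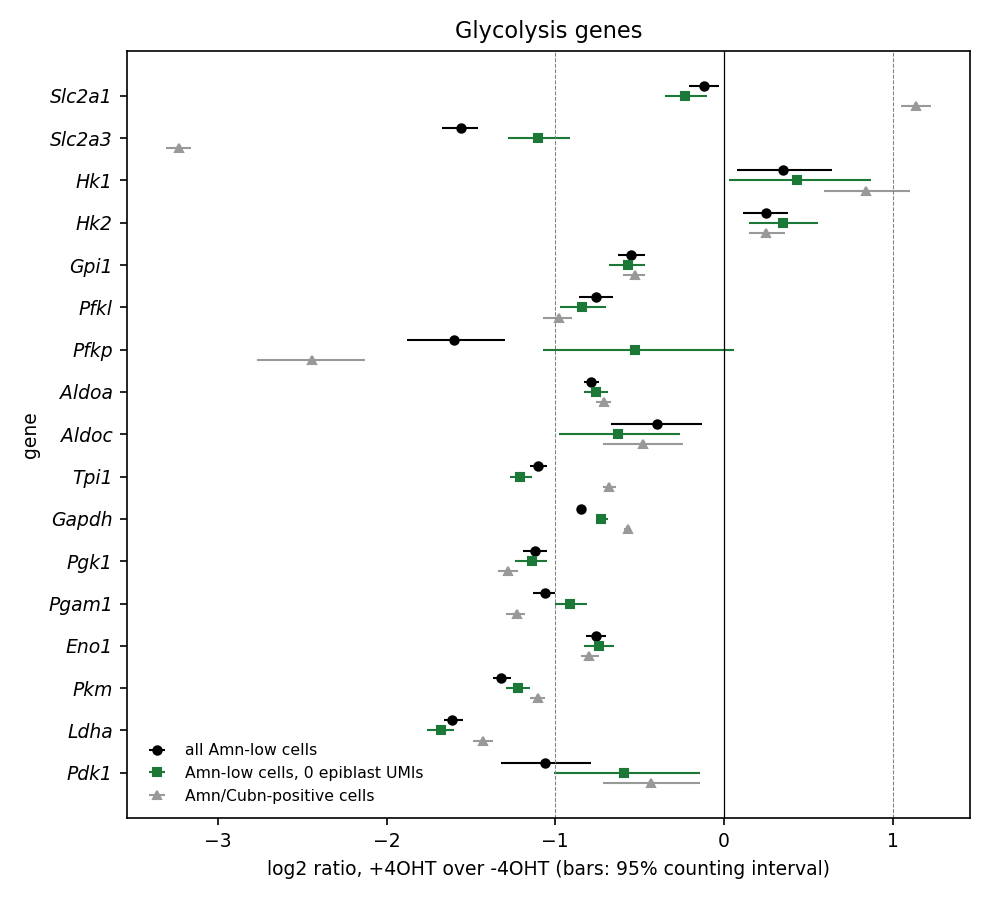
Log2 ratio of 17 glycolysis genes, +4OHT over -4OHT, with 95% counting intervals as bars, in all Amn-low cells (circles), in Amn-low cells with 0 UMIs of 6 epiblast genes (squares) and in endoderm cells with Amn or Cubn UMIs (triangles). Ldha, Pkm and Pgk1 lie left of -1 in all 3 sets, Hk1 and Hk2 lie right of 0, and Slc2a3 and Pfkp are lowest in the triangles.

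Oxidative phosphorylation genes differed little by comparison, with a median of -0.08 over 88 members and none past 2-fold, and genes of the mitochondrial genome had a median of 0.02. Ribosomal protein genes had a median of -0.24, with 4 of 81 above 0. Cell cycle genes had medians below 0, of -0.45 for 19 S phase genes and of -0.34 for 20 genes of G2 and mitosis. Of these, 2 and 0 were 2-fold or more lower, beside 1.40% of all genes. These 2 medians were -0.28 and -0.18 in the cells with 0 UMIs of 6 epiblast genes, and that of G2 and mitosis was 0.11 without gastrokine, trefoil, Pitx1 or Car4 cells. The S phase genes past 2-fold were Ung, a uracil glycosylase gene, at 28.6 and 11.4 CPM (-1.33, -1.56 to -1.09), and Ccne1 at 48.6 and 22.4 (-1.12, -1.29 to -0.94).

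Signalling lists other than LIF gave few genes above the floor. No FGF ligand or receptor reached 20 CPM, and of the ERK feedback and ETS target genes 2 did, Spred2 at 21.3 and 8.19 CPM (-1.38) and Phlda1 at 44.1 and 38.3 (-0.20). Among 8 NODAL and BMP response genes, the NODAL targets Lefty1 and Lefty2 were lower, at 43.3 and 2.13 CPM and at 31.6 and 0.907, while the ligand gene Bmp2 was higher, at 33.0 and 74.15 (1.17, 0.97 to 1.37). In the cells with 0 UMIs of 6 epiblast genes, Lefty1 had a ratio of -0.68 and stood at 3.355 and 2.10 CPM. Lefty2 stood there at 1.677 and 0.0733 CPM (-4.52), and Bmp2 had a ratio of 0.88, under 2-fold. The BMP target Id3 stood at 22.1 and 8.12 CPM (-1.45, -1.71 to -1.17) and had a ratio of -1.36 in those cells.

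The 12 p53 target genes had a median of 0.19 and the 11 genes of the integrated and ER stress response a median of 0.09, equal to the median over all genes, with none past 2-fold in either list. Beside the counts of the lists that follow, 2.11% of all genes were 2-fold or more higher and 1.40% lower. Of 8 visceral endoderm secreted and endocytic genes, 2 apolipoprotein genes were lower, Apoe at 99.2 and 35.3 CPM (-1.49) and Apoa2 at 21.2 and 2.44 (-3.12), and their ratios were -0.65 and -1.06 in the cells with 0 UMIs of 6 epiblast genes. Of 9 contractile actin genes, 1 was past 2-fold, the lower gene Myl9, and Ccn2 stood at 223.8 and 412.4 CPM (0.88, 0.81 to 0.96). Of 5 interferon response genes, 3 were past 2-fold and lower, Ifitm1, Ifitm2 and Ifitm3, with ratios of -1.20, -1.44 and -3.50. In the cells with 0 UMIs of 6 epiblast genes these ratios were -0.30, -0.75 and -1.86. Of the 4 interferon genes that kept 20 CPM there, 0 were past 2-fold. The median of this list, -1.20 in all cells, was 0.60 in the 24 and 900 cells without the wider epiblast set that includes Dppa5a. The early PrE, late PrE and trophectoderm lists, of 4 members each at 20 CPM or more, had medians of 0.26, 0.30 and 0.32 with none past 2-fold. Epithelial junction genes had a median of 0.28 over 10 members, with Dsp, a desmosome gene, past 2-fold at 20.7 and 46.3 CPM (1.16, 0.91 to 1.43), and at 0.79 in the cells with 0 UMIs of 6 epiblast genes and 0.33 without gastrokine, trefoil, Pitx1 or Car4 cells. The estrogen receptor and response list, which bears on 4OHT as a ligand of that receptor, had a median of 0.27 over 4 members, of which Wnt4 was past 2-fold.

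**Figure D5:**
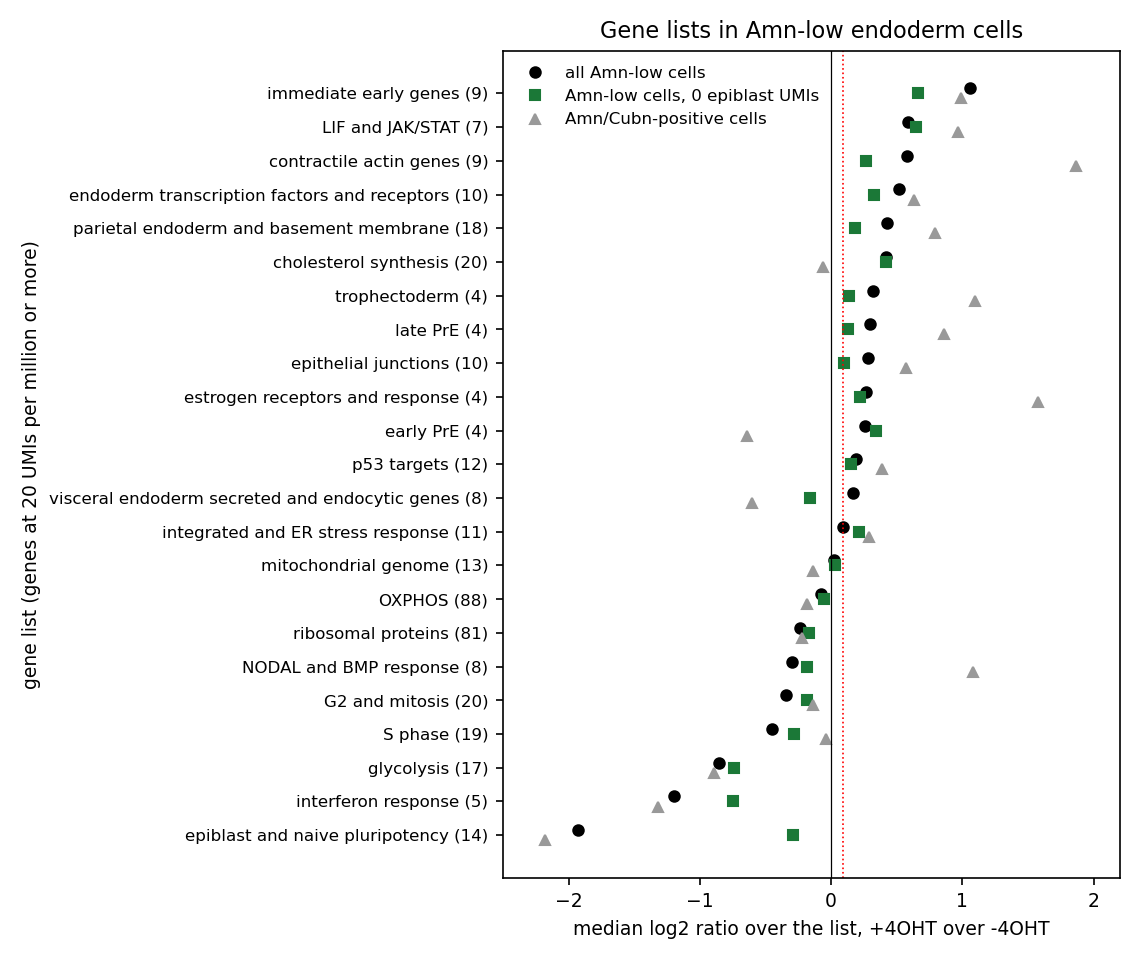
Median log2 ratio of each gene list with 4 or more members at 20 CPM or more, +4OHT over -4OHT, in all Amn-low cells (circles), in Amn-low cells with 0 UMIs of 6 epiblast genes (squares, same members, leaving out those with 0 UMIs in both libraries) and in endoderm cells with Amn or Cubn UMIs (triangles, members at the same floor there). The number of members at the floor in all Amn-low cells stands in brackets and the dotted line is the median over all 6736 genes, 0.09. Immediate early genes lie highest at 1.06, and epiblast, interferon and glycolysis genes lowest at -1.93, -1.20 and -0.85. The epiblast list stands at -0.29 in the squares. Its members Nanog, Sox2, Tdgf1 and Utf1 are left out there because the cells were chosen for 0 UMIs of them, which in part set this move.

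The same genes were read in sorted bulk libraries of another nEnd line, which carries an OCT4-mCherry reporter. Its PDGFRA-positive cells with the reporter (DP) and without it (Pdgfra+) were sorted in 3 libraries each, of 8063450 to 10758050 counted reads. Pou5f1 stood at 131.9, 245 and 310.3 CPM in DP and 26.4, 8.37 and 17.6 in Pdgfra+, a log2 fold change of 3.72 (SE 0.42, edgeR quasi-likelihood adjusted p = 0.00725). Over 14185 genes, edgeR placed 454 higher in DP (3.20%) and 98 lower (0.691%) with thresholds of 0.05 on the adjusted p and 1.5 on the log2 fold change in either direction. With the replicate number as a block the counts were 515 and 198. Without Pdgfra+ replicate 3 they were 53 and 4, without DP replicate 2 they were 115 and 9, without DP replicate 3 they were 116 and 5, and without Pdgfra+ replicate 2 they were 116 and 32. Without Pdgfra+ replicate 1 they were 299 and 64, and without DP replicate 1 they were 509 and 219.

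Of the 94 genes lower in +4OHT Amn-low cells, 86 were tested in bulk, and 20 of them were higher in DP (23.3% of the tested genes, 4.41% of all genes higher in DP) and 2 lower (Id3 and Kcng1, 2.33%). Of the 6588 genes with 20 CPM or more in the Amn-low cells that were tested in bulk, 0.577% were higher in DP and 0.562% lower. The 20 included Nanog, Sox2, Tdgf1, Klf2 and Utf1. In the Oct4+ libraries, sorted for the reporter without PDGFRA, these 5 genes had mean levels of 538.3, 384.2, 420, 251 and 306.6 CPM. Their means in DP were 16.1, 18.4, 10.8, 7.27 and 95.5 CPM. The source of the DP level was not tested. The call of Nanog was lost without Pdgfra+ replicate 3 (edgeR adjusted p = 0.0746), and that of Tdgf1 without DP replicate 2 (0.0800), without Pdgfra+ replicate 3 (0.0987) and with only the 6 libraries compared (0.0580). The call of Utf1 was lost without DP replicate 2, DP replicate 3 or any single Pdgfra+ replicate (edgeR adjusted p up to 0.107), while those of Sox2 and Klf2 were kept in every alternative run. Of the 32 genes that remained lower in the cells with 0 UMIs of 6 epiblast genes, 27 were tested, and 1 was higher in DP (Chchd10, 3.70%) and 2 were lower (Id3 and Kcng1, 7.41%). The 6 epiblast genes are among the 20 and could not be among these 27, so that the lower share is in part set by the choice of cells, and without them 14 of 80 tested genes were higher in DP (17.5%). Of the 142 genes higher in +4OHT Amn-low cells, 136 were tested, with 2 higher and 2 lower in DP (1.47% each).

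Glycolysis genes gave a single call between DP and Pdgfra+ cells. Their median log2 fold change was 0.03 over 18 genes, and Pfkp passed the thresholds (1.67, SE 0.43, edgeR adjusted p = 0.0481), a call that was lost in 6 of the alternative fits, among them those without DP replicate 1, DP replicate 2, DP replicate 3, Pdgfra+ replicate 2 or Pdgfra+ replicate 3 (adjusted p from 7.18e-05 to 0.164 over the alternatives). Ldha stood at 1157, 886.4 and 984.4 CPM in DP and 1119, 991.7 and 991 in Pdgfra+, and the groups overlapped (-0.03, SE 0.22, edgeR adjusted p = 0.937). Socs3 stood at 109, 49.9 and 77.8 CPM in DP and 144.3, 91.35 and 155.7 in Pdgfra+, which also overlapped, though DP was lower in each of the 3 pairs of the same number (-0.73, SE 0.37, edgeR adjusted p = 0.251, 0.0222 to 0.562 over the alternatives, with no call in any). Tff1 stood at 5.98, 1.06 and 1.44 CPM in DP and 5.98, 0.598 and 2.92 in Pdgfra+ (-0.15, SE 0.86, edgeR adjusted p = 0.929). Id3 was lower in DP, at 11.8, 4.84 and 6.67 CPM against 20.9, 20.4 and 32.25 (-1.66, SE 0.38, edgeR adjusted p = 0.0340), and this call was lost without DP replicate 2, DP replicate 3 or any single Pdgfra+ replicate (0.00046 to 0.124 over the alternatives).

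Thbd stood at 44.0, 6.25 and 13.99 CPM in DP and at 97.7, 51.3 and 147.9 in Pdgfra+, with no overlap (-2.21, SE 0.62, edgeR adjusted p = 0.0601), and passed with the replicate block (adjusted p = 0.0219) and without DP replicate 1 (0.0121), with a range of 0.000124 to 0.201 over the alternatives. Igfbp1 stood at 16.6, 0.826 and 27.1 CPM in DP and 50.4, 9.96 and 94.5 in Pdgfra+, where the groups overlapped (-1.80, SE 0.94, edgeR adjusted p = 0.2585, and 0.0184 with the replicate block, within a range of 0.0184 to 0.635 over the alternatives). Myl9 stood at 3.99, 0.708 and 3.01 CPM in DP and 10.9, 6.77 and 24.6 in Pdgfra+ (-2.46, SE 0.70, edgeR adjusted p = 0.0627). It passed with the replicate block (edgeR adjusted p = 0.0193), with no filter on low counts (0.00148) and with DESeq2 (Wald test adjusted p = 0.00524). The range over the alternatives was 0.00148 to 0.230. Igfbp1 and Myl9 thus had their lower bulk means in the cells with the reporter, and in the Amn-low cells their lower levels in the library with 4OHT. Neither was called in the main bulk fit. The Igfbp1 UMIs came from 3.43% of the -4OHT Amn-low cells. Myl9 had a ratio of 0.65 in the Amn-low cells without gastrokine, trefoil, Pitx1 or Car4 cells.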

How the data were processed

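Both single-cell libraries were raw UMI counts per gene and barcode that the authors deposited, made with Cell Ranger 6.1.2 against mm10 per the file header. The bulk libraries were raw read counts per gene symbol as deposited by the authors; their aligner, counter and build were not given in the sources used here, and 35 empty lines, which hold no counts, were left out. The members and gene lists were chosen with earlier results of these data known.

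UMIs were summed over the selected cells of each library, scaled to CPM, and compared as ratios with exact 95% counting intervals, in Python 3.11.15 with scipy 1.17.1. PCR and free RNA are not covered by these intervals. A gene counted as higher or lower at a 2-fold ratio with 20 CPM in 1 library. A gene near this floor could thus pass it only through the library where it was high. Named genes were Pou5f1, genes the study names, the 12 largest ratios in each direction and up to 4 members of each of 30 lists. Other genes were named after their values were seen. Doublets were kept, and a doublet score served as an alternative.

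Bulk DP and Pdgfra+ libraries were compared with edgeR 4.0.16 (TMM, quasi-likelihood test, Benjamini-Hochberg adjustment) in a fit of all 9 libraries, Oct4+ included, with DESeq2 1.42.0 as an alternative. The main fit used the group only and did not pair libraries. Same-numbered libraries deviated together (correlations of 0.271, 0.477 and 0.321), so a fit with the number as a block was run as an alternative. Nothing states that replicates were separate cultures, so p-values cover the spread between these libraries. The statistics were tested on simulated data. Promoter windows came from RefSeq.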

Additional observations from a re-analysis of the deposited data

How the results depend on the processing

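The counts of 142 higher and 94 lower genes stayed within 1.5 times under 19 of 34 recomputations, among them the scalings, the depth cuts and thinning. A like count need not hold the same genes. Thinning also changed the members, to 673 and 6010 cells. It gave 212 higher and 92 lower genes, of which 112 and 63 were among the genes as reported. They were 90 and 40 without the 6% most doublet-like cells, of which 80 and 33 were among the genes as reported, 248 and 192 without gastrokine, trefoil, Pitx1 or Car4 cells, 67 and 40 at a floor of 50 CPM, and 1022 and 2326 with no floor. Without cells holding any UMI of Nanog, Sox2, Esrrb, Tdgf1, Dppa5a or Zfp42 they were 791 and 349, on 24 cells of -4OHT. In 2 alternatives chosen after seeing the data, without cells with any UMI or with 10 or more UMIs of Nanog, Sox2, Tdgf1, Utf1, Stmn2 and Trh, they were 93 and 43, and 87 and 39. The lower count was 59 at 6000 CPM of Sparc, Col4a1 and Col4a2. The cause of these moves was not tested. Signs turned in 1 or more recomputations for 22 of 117 named genes and 9 of 28 lists, of which 3 genes and 1 list were past 2-fold in all cells. These were Myl9 (0.65) and Egr1 (-0.24) without gastrokine, trefoil, Pitx1 or Car4 cells, and Pfkp (0.75) and the interferon list (0.60) without cells with the first set of epiblast UMIs. Without the former cells the G2 and mitosis list also turned (0.11), and without the latter the NODAL and BMP list (0.86) and the visceral endoderm list (-0.56).

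In bulk, the counts of 454 higher and 98 lower genes were 824 and 199 with no filter, 759 and 156 with DESeq2, 328 and 79 with the 6 libraries compared, and 515 and 198 with the replicate block, which pairs libraries by number. Leaving out 1 library gave 53 to 509 higher and 4 to 219 lower genes. With 1 library per condition, no spread between cultures can be given for any ratio of the Amn-low cells, and the 467 cells of -4OHT limit precision for genes near 20 CPM.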

Other observations

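Expression of Pitx1 and Car4 was also read in the Amn-low cells. Cells with 2 or more UMIs summed over this pair made up 81.4% of the -4OHT cells (exact 95% interval 77.5% to 84.8%) and 64.3% of the +4OHT cells (63.0% to 65.6%), and 48.4% and 25.6% with every cell thinned to 2700 UMIs. In the endoderm cells with Amn or Cubn UMIs the shares were 43.8% and 75.3%, the opposite order, and the difference between the classes was not tested.

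Within the +4OHT library, the 1794 cells with gastrokine or trefoil UMIs held 70.9 CPM of Wnt4, against 29.2 in the other 3455 Amn-low cells. Psca stood at 46.5 and 16.1 CPM in these sets, Mucl3 at 85.05 and 24.4, and Socs3 at 240.0 and 171.4. These are values of 1 library and were not tested.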
